A study of Mus musculus with 2 samples.

Results

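The 172 long runs of 5hmC peaks described here are stretches of the mouse autosomes in which the peaks called in passage 0 fibroblasts followed each other at short distances. Peaks of the passage 0 list on chromosomes 1 to 19 were sorted by position, neighbours with a gap of at most 5000 bp were joined, and a joined stretch of 10 or more peaks was kept as a run. The starts of chromosome 9 (before 3.1 Mb) and chromosome 11 (before 3.2 Mb) were left out. The runs held 2265 of the 60157 passage 0 peaks, or 3.77% of the list. The runs were thus chosen by the passage 0 peak positions, so their number, length and spacing are given as a description only, while the passage 5 list, which the rule did not use, is the readout set against them.

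Both libraries came from mouse embryonic fibroblasts (MEFs), a mixed culture of connective tissue cells grown out of whole embryos, here from C57BL/6 embryos at day 13.5. The cells were kept in DMEM with 10% fetal calf serum and harvested either without passaging (passage 0) or after 5 passages (passage 5), with 1 library each and no other treatment named. DNA fragments with 5hmC were captured by GLIB precipitation, which puts a biotin-tagged glucose on the hydroxymethyl group, and were then sequenced. The series is titled for the transcriptional control of Tet1. The labels do not say whether the 2 libraries came from the same embryos. The purity of the cultures could not be checked against marker genes, since peak lists measure no expression.

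5-Hydroxymethylcytosine arises when a TET enzyme (Tet1, Tet2 or Tet3) oxidises 5-methylcytosine. It is an intermediate on the way to unmodified cytosine and is also a mark that can persist, and it is found mostly in gene bodies and at enhancers of transcribed genes. In dividing cells it is diluted when DNA is copied unless it is made again, and cultured cell lines are known to carry less of it than tissue. A peak caller reports local pile-ups of reads, so a long domain of 5hmC can be reported as many separate peaks.

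Positions are in mm9, counted from 1, with the starts in the lists read as counted from 0. The lists do not state this, and the first peak of the mitochondrial sequence starts at 1 in one list and 0 in the other, so starts may be off by 1 base. The only gene table at hand is on another build (GRCm38), so the gene loci under the runs, their exons and introns and their base sequences were not analysed here, and runs are named by chromosome and position. The read depth of each library is unknown. Each passage has a single library, so replicate error cannot be estimated and p-values are not reported. The 95% intervals are exact (Clopper-Pearson) binomial ones, treat peaks as independent although the peaks of 1 run are neighbours in the same library, and cover counting error only. A peak is called shared when a peak of the other passage overlaps it by 1 base or more.

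The runs were long stretches that peaks covered in part. The median run held 12 peaks and spanned 31.4 kb from its first start to its last end. The middle 50% of runs spanned 26.7 kb to 39.9 kb, the shortest 17.9 kb and the longest 103 kb. Fill, the share of the span that lies under a peak, had a median of 43.8% and quartiles of 37.5% and 48.5%. Together the runs spanned 6.01 Mb, which is 0.251% of the autosomal span of the lists, and their peaks covered 2.63 Mb, which is 4.64% of all bases under autosomal passage 0 peaks.

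Most runs were only just long enough to be counted. There were 57 runs of 10 peaks, 27 of 11 and 23 of 12, against 14 runs of 20 or more, which held 345 peaks. Just outside the limit there were 60 runs of 9 peaks. The values of runs of 10 and of 9 peaks lay close to each other. Their median fills were 43.1% and 42.5%, their median peak scores 152 and 146, and the shares of their peaks with a passage 5 peak 6.67% and 7.04%.

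**Figure D1:**
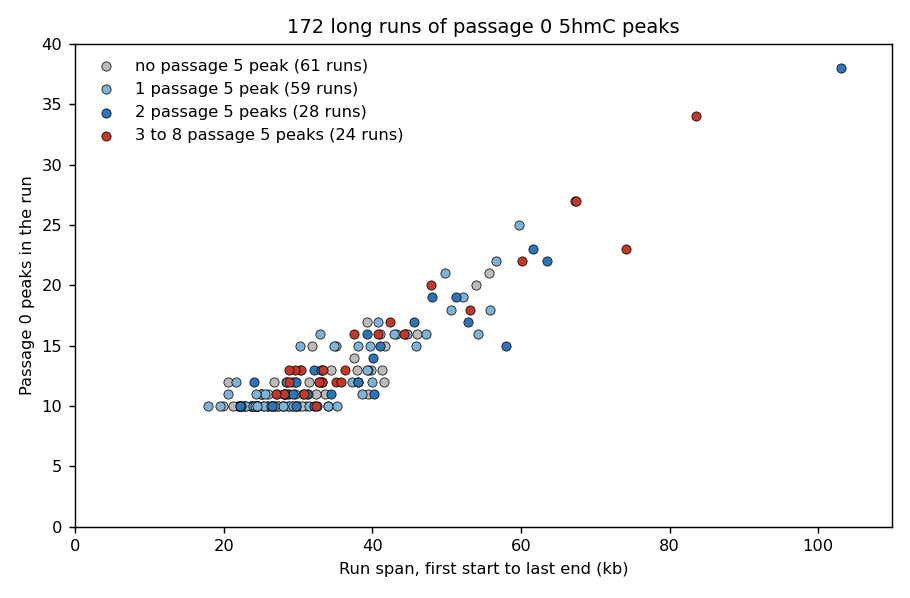
Each point is 1 of the 172 long runs, placed by its span in kb (horizontal axis) and by the number of passage 0 peaks in it (vertical axis), and coloured by the number of passage 5 peaks inside it. Most runs sit between 10 and 15 peaks, and the runs of 38 and 34 peaks stand apart at 103 kb and 83.5 kb.

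Within a run the peaks lay close together. The 2093 gaps between neighbours had a median of 1288 bp and quartiles of 430 and 2561 bp, well inside the joining distance. Of these gaps, 898 (42.9%) were under 1000 bp and 159 (7.60%) were over 4000 bp. From midpoint to midpoint the median step was 2533 bp. Whether the peak caller broke a continuous stretch of 5hmC into pieces was not tested, as that needs the reads.

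The peaks in runs were wider and had higher scores than the other passage 0 peaks. Their median width was 984 bp (quartiles 792 and 1368), against 846 bp (708 and 1037) outside the long runs. The median of the authors' peak score was 164 (quartiles 111 and 269) in the runs and 128 (96.9 and 189) outside them. Both measures went up in steps from single peaks (813 bp, score 119) over peaks in runs of 2 to 9 (876 bp, score 136) to the long runs. All of these values come from the list that the rule was applied to and are no test of it.

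Strong and weak peaks were mixed inside a run. The scores of run peaks went from 80.01, close to the lowest of the whole list, to 1462. In 16 runs the best peak scored over 1000, and in 19 runs it stayed under 300. The median peak score of a run ranged from 97.5 to 342. The score of a peak told little of the score of its neighbour: over 2093 neighbouring pairs in the same library, the Pearson correlation of log2 scores was 0.06, and over 20854 pairs in runs of 2 to 9 it was 0.07. With each run divided into 3 parts by peak order, the first, middle and last parts held 737, 791 and 737 peaks. The best peak of the run lay in the first part in 67 runs, in the middle part in 53 and in the last part in 52. It was the first or the last peak in 24 runs.

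Long runs were unevenly spread over the chromosomes. Chromosome 8 held 19 runs, and 8.03% of its passage 0 peaks lay in them. By this share, chromosome 15 followed with 6.52% in 14 runs and chromosome 18 with 5.50% in 10 runs. By number, chromosomes 2 and 4 came next with 15 runs each. Chromosome 1, with 3934 passage 0 peaks, held only 3 runs with 0.864% of its peaks, and chromosome 13 held 3 runs with 1.21%. No run was found on the sex chromosomes by the same joining, which the rule does not cover: the X reached 9 joined peaks of its 65, and the Y 2 of its 5.

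**Figure D2:**
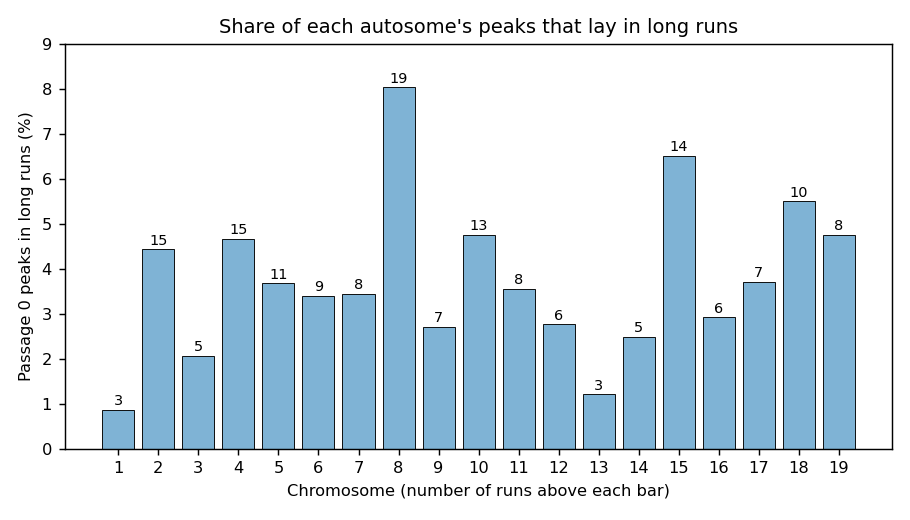
Bars give the share of each autosome's passage 0 peaks that lay in long runs (vertical axis, percent), by chromosome, with the number of runs above each bar. Chromosome 8 is highest at 8.03% with 19 runs, and chromosome 1 is lowest at 0.864% with 3.

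Some runs lay side by side. With a distance of up to 100 kb allowed between runs, 37 of them fell into 18 groups, of which 17 were pairs. The only group of 3 lay on chromosome 19 at bases 55829808 to 55961497, where runs of 15, 12 and 10 peaks with 1 passage 5 peak each filled a stretch of 132 kb. With up to 200 kb allowed, the largest group was on chromosome 10 at bases 119669357 to 120319869. It held 5 runs of 10 to 38 peaks, 92 peaks in all, in 651 kb, and 6 passage 5 peaks. The surroundings of the runs were also dense in passage 0 peaks. Their density was 128 per Mb at 5 to 50 kb from a run, 95.6 at 50 to 100 kb and 58.1 at 100 to 500 kb, against 25.1 over the autosomes.

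The longest run lay on chromosome 10 at bases 119803451 to 119906559. It held 38 peaks in 103 kb with a fill of 58.1%, and its scores ran from 88.6 over a median of 225 to 1386. Its strongest part was a block near the middle. There, the peaks at bases 119859088 to 119864016 (score 1381), 119864350 to 119868205 (1386) and 119871545 to 119876651 (1181) were 4929, 3856 and 5107 bp wide. At passage 5 only 2 peaks were called in the whole run. The first, at bases 119865487 to 119866225 with a passage 5 score of 128, lay inside the highest-scoring passage 0 peak. The second, at 119884881 to 119885435 with a score of 91.4, lay in a gap. The other 37 passage 0 peaks of the run, 2 of the 3 in the strongest block among them, had no passage 5 peak.

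The next run by number of peaks had the most passage 5 peaks. On chromosome 8 at bases 11322439 to 11405983, 34 passage 0 peaks spanned 83.5 kb with a fill of 47.8% and a best score of 690. Here 8 passage 5 peaks were called, of which 5 lay on passage 0 peaks and 3 in gaps. Of the 8, 4 followed each other between bases 11382187 and 11387903, and the 3 in gaps belong to these. The passage 5 scores in the run stayed between 91.9 and 137. Another run, 38.5 kb before it at bases 11248799 to 11283961, held 12 passage 0 peaks and another 3 passage 5 peaks.

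The other 8 runs among the 10 with the most peaks held 22 to 27 peaks each. Chromosome 3 had a run of 27 at 27536879 to 27604299, and chromosome 11 had a run of 25 at 76097057 to 76156799. Chromosome 6 had a run of 23 at 31011336 to 31085507. Runs of 22 lay at 173044050 to 173104174 (chromosome 2) and 58806339 to 58869780 (chromosome 15). Chromosome 8 had a further 3, of 27 peaks at 119801603 to 119868916, of 23 at 83331775 to 83393403 and of 22 at 111257257 to 111313862, so that 4 of the 10 were on this chromosome. Each of the 8 had between 1 and 5 passage 5 peaks, and all of these touched a passage 0 peak of the run. The chromosome 6 run had the highest score of all run peaks, 1462, at bases 31029244 to 31033213, and a passage 5 peak with a score of 102 lay in that peak. The chromosome 2 run held the highest-scoring passage 5 peak found in any run (439, at 173091796 to 173092727), on a passage 0 peak with a score of 988.

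**Figure D3:**
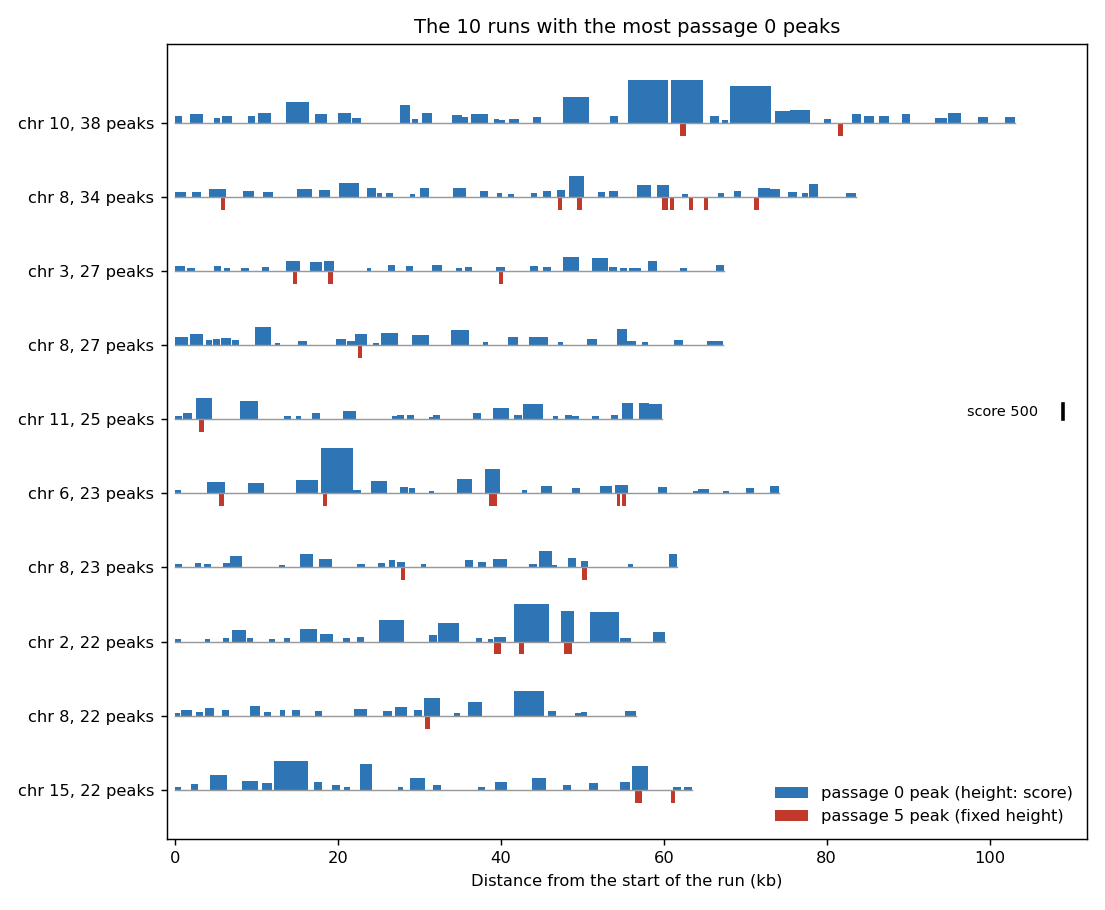
The 10 runs with the most passage 0 peaks are drawn to scale from their first base (horizontal axis, kb), 1 run per line, labelled by chromosome and number of peaks. Blue boxes are passage 0 peaks with their height in proportion to the score (bar for a score of 500 at the right), and red boxes of fixed height below the line are passage 5 peaks, of which the longest run has 2 and the chromosome 8 run of 34 peaks has 8.

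The 5 runs with the highest fill spanned 19.5 to 42.4 kb, less than any of the 10 runs with the most peaks. Over all runs, fill did not fall with length. Its median was 43.3% in runs of 10 to 14 peaks and 46.5% in runs of 15 or more. The highest fill, 81.7%, belonged to a run of 10 peaks on chromosome 5 at bases 111849756 to 111869222, where the median gap was 187 bp and 1 passage 5 peak was called. The next were 2 runs of chromosome 18, at 75534145 to 75576510 (64.1%) and 80826002 to 80854827 (63.8%). A run of chromosome 14 at 120718398 to 120744304 (62.2%) and another of chromosome 5 at 114302320 to 114341585 (60.7%) followed. Of these 4, the first held 3 passage 5 peaks and the other 3 runs held none. The lowest fill of any run was 26.9%.

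At passage 5 fewer peaks were called in these runs. Inside the bounds of the 172 runs, 204 passage 5 peaks stood against 2265 passage 0 peaks, a ratio of 11.1 (9.62 to 12.9). Of the summed run span, passage 0 peaks covered 43.8% and passage 5 peaks 2.06%. The covered bases thus had a ratio of 21.2. It was 19.4 in runs of 2 to 9 peaks and 14.6 outside the long runs. The passage 0 side of these ratios is what the rule selected on, so a higher ratio inside than outside is favoured by the choice of the runs and is no result about them. No stretch of 10 joined peaks existed at passage 5 on these chromosomes, the left-out starts aside. The same joining of passage 5 peaks gave at most 6 in a row, on chromosome 7 at bases 117839119 to 117852139, outside the long runs. Of the 204 passage 5 peaks inside the runs, 69 (33.8%) had another passage 5 peak within the joining distance. Over the autosomes this held for 15.3% of the passage 5 peaks and 57.4% of the passage 0 peaks. Passage 5 peaks were also denser in the runs, at 33.9 per Mb against 2.77 over the autosomes. The share with a neighbour was not computed for runs of 2 to 9 peaks, so a higher share is not shown to be particular to the long runs. A shorter list has fewer neighbours by its length alone, and the depth of the libraries is unknown, so a loss of 5hmC and a lower sensitivity at passage 5 cannot be told apart.

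The ratio of peak numbers elsewhere is given beside that in the runs with the same limit, and its order depended on how peaks were counted. Outside the long runs the ratio was 8.99 (8.76 to 9.22), a number that also takes in passage 5 peaks far from any passage 0 peak. Inside the bounds of runs of 2 to 9 peaks it was 11.5 (11.1 to 11.98), and at 5 to 50 kb from a long run 11.5 (9.79 to 13.6). When peaks within 1 kb of each other were merged in both lists first, the order turned. The ratio was then 7.04 inside the runs (6.05 to 8.23) and 8.08 outside (7.87 to 8.30). The merged numbers in the runs were 1366 at passage 0 and 194 at passage 5. The rule chose close passage 0 peaks, which merging joins, so the turn is also favoured by the choice of the runs and is no result about them. The density of passage 5 peaks in the runs was 33.9 per Mb, against 35.5 in runs of 5 to 9 peaks, 38.8 in runs of 2 to 9, 11.1 at 5 to 50 kb from a long run and 2.77 over the autosomes.

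Of the 172 runs, 111 held at least 1 passage 5 peak, which is 64.5% (56.9% to 71.7%), against 20.9% of all joined stretches of 2 or more passage 0 peaks. The difference goes with the number of peaks a stretch offers. In runs of 10 peaks 50.9% held a passage 5 peak (37.3% to 64.4%), in runs of 16 to 19 peaks 87.5% (67.6% to 97.3%), and in the 14 runs of 20 or more 85.7% (57.2% to 98.2%). Relative to 100 passage 0 peaks, runs of 10 held 6.84 passage 5 peaks, those of 11 to 12 held 9.77, those of 13 to 15 held 10.2, those of 16 to 19 held 9.41 and those of 20 or more held 9.57, so this number did not go up steadily with run length. There was 1 passage 5 peak in 59 runs, 2 in 28 runs and 3 or more in 24. Another 61 runs held none.

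The 5 runs with the most peaks among those without a passage 5 peak had 16 to 21 peaks. On chromosome 4, the run at bases 149248761 to 149304466 had 21 peaks, a median score of 180 and a best score of 1197. On chromosome 8, the run at 111416937 to 111470849 had 20 peaks, a median score of 206 and a best score of 826. The others had 17 peaks on chromosome 5 (114302320 to 114341585) and 16 each on chromosome 2 (172670222 to 172716246) and chromosome 18 (69567539 to 69608557), and their best scores were 787, 1257 and 206. Their median scores were 217, 139 and 152, of which the last 2 lay below the median of 161 over all runs. Over all runs, the median of the run's median score was 165 for the 111 runs with a passage 5 peak and 157 for the 61 without. The median of the best score was 588 and 467.

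Among the 5 runs with the most passage 5 peaks, 2 held only 10 and 11 passage 0 peaks. The run of 10 peaks on chromosome 7 at bases 75438957 to 75471337 held 5 passage 5 peaks, each on a separate passage 0 peak, so that 50% of its peaks were shared. No other run reached that share. The run of 11 peaks on chromosome 12 at 16835104 to 16863171 also held 5, of which 4 lay on passage 0 peaks, and the best of them had a passage 5 score of 348 at 16854873 to 16855899. These 5 made up the second-longest row of joined passage 5 peaks. The chromosome 6 run of 23 peaks held 5 as well, and a run of 16 peaks on chromosome 4 at 154495383 to 154532941, the first in chromosome order of 6 runs with that number, held 4.

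Passage 5 peaks inside the runs lay almost always on a passage 0 peak and seldom in a gap. Of the 204, 190 shared a base with one, which is 93.1% (88.8% to 96.2%), against 69.8% of all passage 5 peaks of the autosomes and 69.0% of those outside the runs (67.9% to 70.1%). The last 2 groups also take in passage 5 peaks far from any passage 0 peak. The share was not computed for runs of 2 to 9 peaks, so it is not shown to be particular to the long runs. Those shorter runs held 2798 passage 5 peaks and 2641 shared passage 0 peaks, where the long runs held 204 and 185. Since peaks cover more of a run than of the genome, the fill is the measure to set beside the share in the long runs. The midpoint lay on a passage 0 peak for 184 of the 204, or 90.2% (85.3% to 93.9%), while passage 0 peaks covered 43.8% of the run span. Passage 5 peaks in runs scored a median of 119, with quartiles of 101 and 146, and those outside a median of 116, with quartiles of 101 and 144. The median widths were 582 bp and 561 bp.

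Counted over passage 0 peaks, 185 of the 2265 run peaks had a passage 5 peak. This was 8.17% (7.07% to 9.37%), near the 7.59% of all autosomal passage 0 peaks and the 7.57% (7.35% to 7.79%) outside the long runs. It was also near the 8.19% of peaks in runs of 2 to 9 (7.90% to 8.497%), while single peaks stood at 6.78% (6.48% to 7.10%). Of the 185, 179 had 1 passage 5 peak and 6 had 2 or more.

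At equal score, run peaks were shared less often than all other passage 0 peaks as a group. Sharing went up with the score, and run peaks had higher scores, so the list was divided into 10 equal classes by score. In 9 of the 10 the share was lower in the runs. In the highest class it was 20.7% in the runs (17.3% to 24.5%) and 24.5% outside (23.3% to 25.6%), and in the eighth class 3.26% (1.502% to 6.10%) and 9.76% (8.999% to 10.6%). The intervals of the 2 groups overlapped in every class but the eighth. The group outside also takes in single peaks. Shares by score class were not computed for runs of 2 to 9 peaks. The lower share is therefore not shown to be particular to the long runs. Had run peaks been shared as often as other peaks of their score class, 243 of them (10.7%) would have had a passage 5 peak, where 185 did. The observed count was below the expected one on 16 of the 19 autosomes and above it on 3. Where it was below, the shortfall was uneven, from 7 against 20.7 on chromosome 10 to 11 against 11.1 on chromosome 7. With classes by width the number was 220 (9.73%), and with classes by score and width together 229 (10.1%). Each lay above the interval around the observed 8.17%, which covers counting error only. That interval treats neighbouring peaks of the same run as independent, and the expected numbers carry no interval. Whether the shortfall exceeds the spread between runs was not tested.

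**Figure D4:**
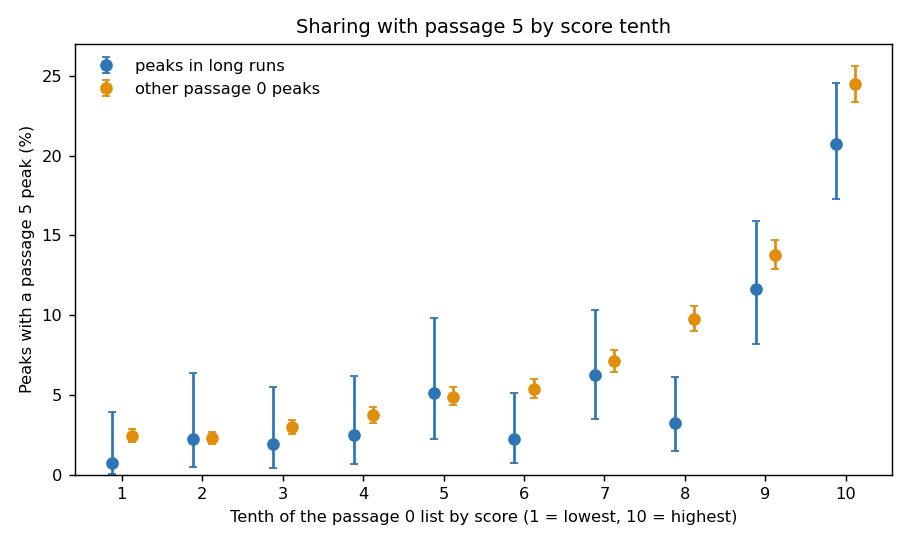
Points show how many percent of the passage 0 peaks were shared with passage 5 (vertical axis) in 10 classes of equal size by passage 0 score (horizontal axis), for peaks in long runs (blue) and all other autosomal passage 0 peaks (orange), with 95% exact binomial intervals. Blue lies below orange in 9 of the 10 classes, and the highest class reads 20.7% against 24.5%.

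The share was 4.94% at the ends of the runs and 8.75% in their inner parts, with intervals that overlap, and the difference was not tested. Of the 344 first and last peaks, 17 had a passage 5 peak (interval 2.90% to 7.79%), against 168 of 1921 inner peaks (7.52% to 10.1%). End peaks also had lower scores, with a median of 148 against 168. With the shares that other peaks had in the same score classes, 9.63% of the end peaks and 10.9% of the inner peaks would have been shared. Run by run, the inner peaks had the higher median score in 86 of the 172 runs.

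Within a run, the passage 5 peaks gathered on the peaks that scored highest at passage 0. The best peak of the run was shared in 48 of the 172 runs, or 27.9% (21.3% to 35.2%), and the second in 30, or 17.4% (12.1% to 24.0%). The fall with rank was not steady, with 10.5% at rank 3 and 16.9% at rank 4, then 5.81% at rank 5 and 9.30% at rank 6. Peaks ranked seventh were shared in 3 runs, or 1.74% (0.361% to 5.01%), and those ranked 11 and lower in 14 of 545 cases, or 2.57% (1.41% to 4.27%). Ranks 1 to 4 together held 125 of the 185 shared peaks. Best peaks made up 25.9% of the shared run peaks and 7.59% of all run peaks. Even so, of the 108 runs with a shared peak, the best one was shared in 48, so that in most of them the shared peak was another. The best peaks had a median score of 559. Outside the long runs, 24.5% of the peaks in the highest score class were shared. There the share also rose with width, from 2.94% in the narrowest class to 16.5% in the widest. Whether the rank within a run told more than score or width was not tested.

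**Figure D5:**
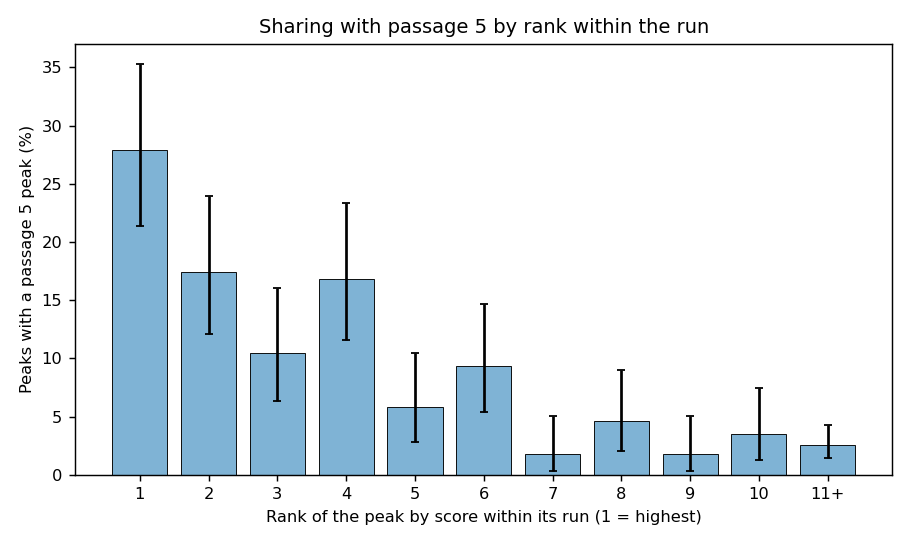
Bars give the share of run peaks with a passage 5 peak (vertical axis, percent) by the rank of the peak's passage 0 score within its own run (horizontal axis, 1 is the highest), with 95% exact binomial intervals. Each of ranks 1 to 10 holds 172 peaks. The share goes from 27.9% at rank 1 to 3.49% at rank 10, with rises in between.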

How the data were processed

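Per the submitters' processing notes, CASAVA 1.8, Bowtie 0.12.7 and MACS 1.4.1 were used with build mm9. How reads were aligned, deduplicated and set against an input, and which peak threshold applied, is not stated there. Each deposited list gives plain start and end positions and, per peak, the authors' own score, which has no name. The score served only within a list, except in an alternative that set the same score limit in both lists. Its lowest values were 80 at passage 0 and 81.5 at passage 5.

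Peaks were joined as the report states. Shares carry exact binomial intervals, and ratios carry intervals derived from them. Fill is covered bases divided by span. Score and width classes each held 10% of the autosomal passage 0 peaks. Named runs were the 10 with most peaks, and the 5 longest, best filled, with most passage 5 peaks, and with most peaks but no passage 5 peak. Members, rules and gene lists were chosen with earlier results of these data known. Alternatives changed the joining distance, the minimum number of peaks, the score limit, the overlap and the way of counting. The groups within 200 kb, the ranks, the ends and the surroundings were added later. The gene lists and the share of runs in genes were not run, since the gene table at hand is on GRCm38 and the files are on mm9. The joining and sharing were tested on simulated data, and overlap counts equalled those of bedtools 2.31.1. Python 3.11.15, numpy 2.4.6, pandas 2.3.3, scipy 1.17.1 and matplotlib 3.10.9 were used.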

Additional observations from a re-analysis of the deposited data

Results flagged for a closer look

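Both stretches that the definition leaves out held passage 5 peaks in numbers unlike the runs. Before 3.1 Mb of chromosome 9 there were 14 passage 0 peaks, 11 of them in 1 joined stretch, and 20 passage 5 peaks, and all 14 were shared. Before 3.2 Mb of chromosome 11 there were 11 passage 0 peaks, 10 of them joined, and 44 passage 5 peaks, and 8 of the 11 were shared. They are named because these passage 5 peaks entered none of the comparisons of the report, and only an alternative given under the processing takes them in.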

How the results depend on the processing

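Of 44 recomputed values for 6 results, 20 stayed near the reported value and 24 moved. Staying meant lying within its interval or spread or, for the number of runs, within a factor of 1.5. Joining at 2 kb left 13 runs of 153 peaks, with a median fill of 61.7% and 0.136% of the passage 5 peaks inside. The ratio was 17 (8.72 to 37.9), and 4.58% of run peaks were shared (1.86% to 9.20%). Of the runs, 46.2% held a passage 5 peak (19.2% to 74.9%). Each of these intervals takes in the reported value. Joining at 10 kb gave 590 runs, a fill of 27.8% and 12.7% of the passage 5 peaks inside. A minimum of 5 peaks gave 1384 runs, 42.4% of them with a passage 5 peak, and 13.3% of the passage 5 peaks inside. A minimum of 15 gave 48 runs, 83.3% and 1.21%. Scores of at least 100 in both lists left 78 runs and 1.73%. The number of peaks that entered changed with each of these settings. Peaks within 500 bp counted as shared gave 9.89%. Weighting all classes equally, 5.66% of run peaks were shared over score classes (7.69% outside) and 6.08% over width classes (7.65% outside). The ratio was 21.2 for covered bases and 7.04 after merging at 1 kb. With both left-out stretches kept, an alternative chosen after seeing the data, there were 174 runs, the ratio was 8.69 and 3.93% of the passage 5 peaks lay inside. The cause of the shifts was not tested. No paired analysis was possible because each passage has 1 library, and no replicate could be left out. Unknown depth limits every comparison between passages.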
